A study of Mus musculus with 10 samples.

Results

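The genes described here are 38 mouse genes of the MYC/MAX transcription factor network and of ribosome biogenesis, taken by symbol from a count table of 55291 genes. They comprise 6 network genes and 32 nucleolar ribosome biogenesis genes. All 38 were found and all 38 passed the filter on low counts, as did 20068 genes in all. In every library 37 of the 38 had at least 100 counts, and Mycn was the exception.

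The measurement was bulk RNA sequencing of sorted regulatory T cells (Treg cells, CD4+ T cells that express the transcription factor Foxp3) from Foxp3YFP-cre mice. All 10 libraries came from this genotype, in which the Foxp3 locus drives a yellow fluorescent protein and the Cre recombinase. Treg cells from lymph nodes (LN) of untreated, tumour-free mice gave 4 libraries. Treg cells from subcutaneous Hepa1-6 tumours (a mouse hepatoma line), taken 23 days after inoculation, gave 4 libraries, and those from subcutaneous E.G7 tumours (a mouse T cell lymphoma line), taken at 21 days, gave 2. The study asked how Treg cells inside tumours differ in expression from those of lymph nodes. Tissue differs with the presence of a tumour in both comparisons with LN, and tumour line differs with the day of collection, so these cannot be told apart. The labels do not say whether replicates came from separate or pooled mice, so the p-values reflect library-to-library spread alone, part or all of which may be technical.

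Library totals were 22665563 to 24472849 counts in LN, 26224286 to 26665325 for the Hepa1-6 group, and 26585350 and 26663336 for the 2 E.G7 libraries. Foxp3 itself was present in every library, at 108 ± 10.8 CPM (counts scaled to a common library total) in LN (SD, n = 4), 82.0 ± 11.0 in Hepa1-6 (SD, n = 4) and 50.2 ± 4.34 in E.G7 (SD, n = 2). The 6 genes of the Treg list did not move together: 2 were higher and 3 lower in Hepa1-6 than in LN, and 1 higher (Ctla4, log2 fold change 1.62) and 4 lower in E.G7. Markers of other cells differed between the groups too. Over all genes tested, 37.0% were higher and 31.1% lower in Hepa1-6 than in LN, and 32.7% and 27.2% in E.G7. Markers near 0 in LN could pass the low-count filter through the tumour libraries alone, so their calls as higher are not independent evidence. In LN, 11 of 14 macrophage and neutrophil and 10 of 15 hepatoma markers averaged under 1 CPM. All 14 macrophage and neutrophil markers were higher in Hepa1-6 and in E.G7 than in LN, with summed levels of 25.1 to 36.9 CPM in LN, 3828 to 4125 in Hepa1-6 and 738 to 769 in E.G7; S100a9 was at 0 in every LN library. Of 15 hepatoma markers, 9 were tested. All 9 were higher in Hepa1-6 than in LN, and 6 were higher and 2 lower in E.G7 than in LN. The 15 summed to 61.6 to 72.9 CPM in LN, 3542 to 3655 in Hepa1-6 and 270.0 to 292 in E.G7. Serpina1a and H19 were at 0 in every library. Of 6 immature T cell and lymphoma markers, 3 were tested, of which 2 were higher and 1 lower in E.G7 than in LN. Their sums were 87.3 to 92.9 CPM (LN), 54.6 to 61.1 CPM (Hepa1-6), and 218 and 222 CPM (E.G7). Trap1a stood at 127 ± 7.92 CPM and Dntt at 46.6 ± 4.50 CPM in E.G7 (SD, n = 2), against 0.0516 and 2.84 in Hepa1-6 and 0.0488 and 2.30 in LN, while Rag1 was at 0 in every library. Of 10 markers of dendritic cells and MHC class II presentation, all 10 were higher too in both tumours than in LN, with sums up to 181 CPM in LN, from 9566 CPM in Hepa1-6 and from 1733 CPM in E.G7. Of 10 CD8 T and NK cell markers, 9 were higher in Hepa1-6 and 8 in E.G7 than in LN, with sums of 29.8 to 34.4 CPM (LN), 516 to 556 CPM (Hepa1-6) and 145 to 146 CPM (E.G7). Of 12 stroma and endothelium markers, 10 were higher in Hepa1-6 and 11 in E.G7, with sums of 225 to 242, 1121 to 1211 and 191 to 223 CPM. Pecam1 was the 1 marker lower in each tumour (log2 fold changes -1.65 and -1.53), and the E.G7 sums were below those of LN. Of 10 B cell markers, 5 were higher and 2 lower in Hepa1-6, and 6 higher and 2 lower in E.G7, with sums of 828 to 937, 373 to 444 and 628 to 636 CPM. The part of these other cells in the results below was not tested. In bulk samples, fewer cells of a type and less RNA per cell cannot be told apart.

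MYC is a transcription factor that binds DNA as a dimer with MAX and is known for raising the genes of growth, among them those that make ribosomes. MXD1, MXD4 and MXI1 also dimerise with MAX and repress the same kind of site, the E-box CACGTG. Ribosomes are built in the nucleolus: RNA polymerase I copies the ribosomal RNA, small nucleolar ribonucleoproteins (snoRNPs) modify and help to cut it, and assembly factors fold it with ribosomal proteins into the small and large subunits. In T cells, activation is known to bring on Myc and ribosome production together.

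Among the network genes, both tumours shared 1 shift relative to LN: Mxd1 and Mxi1 were higher, Mxd4 was lower and Myc was lower. Myc (chr15:61985391-61990374, plus strand, mm10) stood at 282, 258, 279 and 284 CPM in the 4 LN libraries. In Hepa1-6 it stood at 198, 203, 199 and 178 CPM, and in E.G7 at 245 CPM in each library. Every tumour library was therefore below every LN library, and E.G7 lay between the other two groups without overlap. Values are given as CPM with edgeR's TMM scaling, differences as log2 fold changes with standard errors, and a gene is called where the Benjamini-Hochberg adjusted p of edgeR's quasi-likelihood test over all 20068 genes is under 0.05. Myc fell in Hepa1-6 against LN, with a log2 fold change of -0.50 (SE 0.0525, adjusted p = 3.71e-07), and was also lower in Hepa1-6 than in E.G7 (log2 fold change -0.34, SE 0.0633, adjusted p = 0.000388). The fall in E.G7 against LN was small, at -0.17 (SE 0.0644, adjusted p = 0.0333). That last call was lost without LN replicate 1 (adjusted p = 0.0622), LN replicate 4 (0.0679), E.G7 replicate 1 (0.134) or E.G7 replicate 2 (0.132), and scaling to 12 pan T cell genes turned its sign (log2 fold change 0.08, adjusted p = 0.301).

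Mxd1 (chr6:86647042-86669161, minus strand), the antagonist best known for terminal differentiation, had the lowest adjusted p of the 38 genes in both comparisons with LN. It stood at 109, 109, 102 and 115 CPM in LN, at 525, 541, 545 and 525 in Hepa1-6, and at 335 and 294 in E.G7. The 3 groups did not overlap, and the order was Hepa1-6, then E.G7, then LN. It rose 4.90-fold in Hepa1-6 (log2 fold change 2.29, SE 0.0541, adjusted p = 3.54e-15) and 2.89-fold in E.G7 (1.53, SE 0.0612, adjusted p = 6.48e-12). Hepa1-6 exceeded E.G7 by 1.70-fold (0.76, SE 0.0650, adjusted p = 9.87e-08), and Mxd1 was the single member higher in Hepa1-6 than in E.G7, where 26.1% of all genes tested were.

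Mxi1 (chr19:53310518-53375810, plus strand), another MAX-binding repressor, stood at 11.2, 11.9, 12.2 and 10.6 CPM in LN, at 37.2, 45.8, 36.8 and 43.7 in Hepa1-6, and at 39.8 and 38.3 in E.G7. All tumour libraries were above all LN libraries, and the 2 tumours overlapped. It rose 3.57-fold in Hepa1-6 (log2 fold change 1.83, SE 0.0966, adjusted p = 7.93e-11) and 3.41-fold in E.G7 (1.77, SE 0.111, adjusted p = 1.4e-09). The tumours differed by 0.07 (SE 0.111, adjusted p = 0.666).

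Mxd4 (chr5:34173883-34187720, minus strand), the antagonist associated with resting cells, moved the other way. Its level was 139, 134, 130 and 135 CPM in LN, 52.9, 55.0, 52.9 and 45.6 in Hepa1-6, and 59.6 and 61.8 in E.G7. Both tumours lay wholly below LN, by 2.61-fold in Hepa1-6 (log2 fold change -1.38, SE 0.0644, adjusted p = 1.67e-11) and by 2.22-fold in E.G7 (-1.15, SE 0.0812, adjusted p = 5.96e-09). The difference between the tumours was -0.24 (SE 0.0778, adjusted p = 0.0213), and this call did not hold when E.G7 replicate 1 (0.0547) or replicate 2 (0.131) was left out.

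Max (chr12:76937269-76962201, minus strand), the shared partner, was low in all groups. It stood at 11.3, 11.1, 12.3 and 9.32 CPM in LN, 9.68, 8.61, 6.02 and 7.63 in Hepa1-6, and 8.36 and 9.02 in E.G7. LN and Hepa1-6 overlapped in 1 pair of libraries. Max fell in Hepa1-6 (log2 fold change -0.46, SE 0.153, adjusted p = 0.0141; 0.124 with pan T cell scaling), and in E.G7 its value of -0.34 (SE 0.188, adjusted p = 0.131) missed the threshold.

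Mycn (chr12:12936093-12941914, minus strand), a MYC relative, had no count in any LN library. Its counts were 14, 25, 6 and 10 in Hepa1-6 and 12 and 1 in E.G7. Against a floor of 3 counts over the LN group (0.0295 CPM), it was at least 19.2-fold higher in Hepa1-6. In E.G7 it was at least 8.16-fold higher. Both differences were called in the reported fit (adjusted p = 0.000418 and 0.00701). Mycn passed the low-count filter only through tumour libraries, mainly those of Hepa1-6, so these p-values are not independent support for the rises. In fits on the compared groups alone, Mycn was not tested in either comparison with LN. The E.G7 call rested on replicate 1 and was lost without it (adjusted p = 0.212). Even in Hepa1-6 the mean was 0.567 ± 0.339 CPM (SD, n = 4), near the limit of detection.

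Divided by the deposited gene length in kilobases, Myc stood at 102 ± 4.34 CPM per kb in LN, 71.6 ± 4.06 in Hepa1-6 and 90.3 in E.G7. Mxd1 stood at 15.4 ± 0.733, 75.5 ± 1.49 and 44.5 ± 4.06 CPM per kb (SD; n = 4, 4 and 2). The ratio of Mxd1 to Myc was 0.141 to 0.163 in the LN libraries, 0.461 and 0.525 in E.G7, and 1.02 to 1.13 in Hepa1-6. By these lengths, Mxd1 was above Myc in every Hepa1-6 library and below it in every LN and E.G7 library. The lengths (2717 bases for Myc, 7072 for Mxd1) need not be those of the transcripts expressed. Which of these genes was the more abundant is therefore uncertain, while the order of the groups in the ratio does not depend on the lengths.

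**Figure D1:**
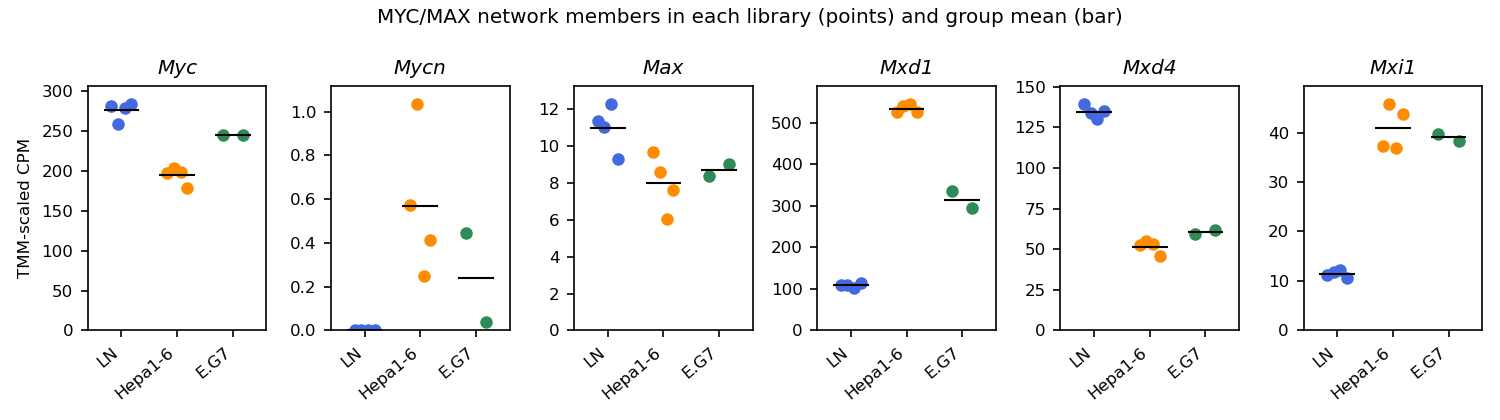
TMM-scaled CPM (vertical axes, linear from 0, a separate scale for each gene) of the 6 MYC/MAX network genes in the LN, Hepa1-6 and E.G7 groups. Points are libraries and bars are group means. Mxd1 averages 109 CPM in the LN libraries, 534 in those from Hepa1-6 and 315 in those from E.G7, and Mxd4 falls from 135 to 51.6 and 60.7.

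The other 7 genes of the MYC/MAX/MLX network did not shift in 1 direction. In each comparison with LN, 4 of 7 rose and 2 of 7 fell, with medians of 0.47 in Hepa1-6 and 0.33 in E.G7. Of all genes tested, 37.0% were higher and 31.1% lower in Hepa1-6, and 32.7% and 27.2% in E.G7. Mnt, a constitutive antagonist, averaged 19.6 CPM in LN and rose to 27.1 in Hepa1-6 (log2 fold change 0.47, adjusted p = 0.000234) and to 24.5 in E.G7 (0.33, adjusted p = 0.0163). Mga, a MAX-binding protein of a repressive chromatin complex, showed the largest called decrease of the list in both tumours, from 102 CPM to 55.5 and 48.8 (log2 fold changes -0.88 and -1.07). Mxd3, an antagonist expressed in dividing cells, rose to 6.84 and 12.2 CPM (1.39 and 2.22), and was the 1 gene of the list to differ between the tumours (-0.83, adjusted p = 0.000809). Mycl and Mlxipl had the most positive changes but were near the limit of detection, with group means of at most 1.16 and 1.15 CPM.

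MYC/MAX and MXD/MAX dimers are known to bind the E-box CACGTG, so the promoter windows of the members (250 bases before to 50 bases after the start; RefSeq, build GRCm38.p6, which is mm10) were searched for these letters. The hexamer reads the same on both strands. Windows were found for 32 of the 38 members; Myc, Npm1, Fbl, Rrp12, Bop1 and Rrs1 were not matched. The hexamer was present in 7 of the 32 (21.9%) and in 10.9% of the 12280 tested genes with a window. The related CACGCG, searched on both strands, was present in 8 of 32 (25.0%) and in 17.8% of tested genes. The 7 sites are shown because they are the E-box letters of the members whose levels are described here. Each is printed on its gene's strand with the hexamer in capitals.
Max, chr12:76962234-76962263, minus strand: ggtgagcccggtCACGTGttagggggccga
Mxd4, chr5:34187912-34187941, minus strand: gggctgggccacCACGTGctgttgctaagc
Nop2, chr6:125131811-125131840, plus strand: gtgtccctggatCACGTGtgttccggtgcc
Pes1, chr11:3963965-3963994, plus strand: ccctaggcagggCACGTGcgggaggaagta
Tsr1, chr11:74898092-74898121, plus strand: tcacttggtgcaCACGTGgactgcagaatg
Utp20, chr10:88826765-88826789, minus strand: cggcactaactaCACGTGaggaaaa
Wdr43, chr17:71616220-71616249, plus strand: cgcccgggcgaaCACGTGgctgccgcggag

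Counted from the start, the hexamer begins 3 bases before it in Max, 219 before it in Mxd4 and 60 before it in Nop2, and at positions 3, 25, 38 and 18 of the transcribed stretch in Pes1, Tsr1, Utp20 and Wdr43. These genes did not share a response. In E.G7 against LN, Tsr1 (log2 fold change 0.61), Nop2 (0.60), Pes1 (0.49) and Wdr43 (0.39) rose, Utp20 (0.02, adjusted p = 0.874) and Max (-0.34) were not called, and Mxd4 fell. A match describes letters in a window and not binding.

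Most of the 32 ribosome biogenesis genes rose in E.G7, whereas in Hepa1-6 some rose, some fell and 15 were not called. In E.G7 against LN, 26 of 32 were higher and 0 were lower, where 32.7% of all genes tested were higher and 27.2% lower (59.9% in either direction). All 26 had every E.G7 library above every LN library, which was so for 36.6% of all genes. The median log2 fold change was 0.59 over the 32 and 0.01 over all genes tested, and 17 of the 32 were higher by at least 1.5-fold (25.8% of all genes). Of the 32, the 6 not called were Polr1a, Polr1b, Rrp9, Heatr1, Utp20 and Bysl, with values from -0.04 to 0.16.

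In Hepa1-6 against LN, 7 of the 32 were higher and 10 lower, and 15 were not called. Over all genes tested 37.0% were higher and 31.1% lower (68.0% in either direction), so the share lower among the 32 (31.2%) was that of all genes. The median over the 32 was -0.08, with a range of -0.76 to 1.41, and 0.04 over all genes tested. The sign of this median depends on the scaling: it was -0.26 with upper-quartile scaling and 0.10 with pan T cell scaling, settings that moved the median of all genes by -0.18 and 0.18. Without overlap between libraries, 6 were higher and 9 lower (34.1% and 27.6% of all genes).

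Set directly against each other, the tumours differed at nearly every gene of the group. In Hepa1-6 against E.G7, 31 of 32 were lower and 0 higher, where 19.6% of all genes were lower and 26.1% higher. The median was -0.69 (0.06 over all genes tested), and 19 of the 32 were lower by at least 1.5-fold (11.9% of all genes). In 31 of 32 every Hepa1-6 library was below both E.G7 libraries (26.2% of all genes). Gar1 was the exception. The comparisons with LN share the same 4 LN libraries, and all 3 comparisons share libraries in pairs.

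All 32 genes had a mean of at least 10 CPM over the 10 libraries, so genes at or above that level form a closer background. Of these 9471 genes, 41.6% were higher and 35.4% lower in Hepa1-6 against LN, 41.1% and 32.3% in E.G7 against LN, and 31.3% and 28.0% in Hepa1-6 against E.G7. Their medians were 0.05, 0.09 and 0.02. The summed level of the 32 genes was 3234 to 3407 CPM in the LN libraries (mean 3299 ± 78.3, SD, n = 4), 3227 to 3471 in Hepa1-6 (mean 3337 ± 101, SD, n = 4), and 5129 and 5279 in E.G7. The sums of LN and Hepa1-6 overlapped, and both E.G7 sums were above them.

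**Figure D2:**
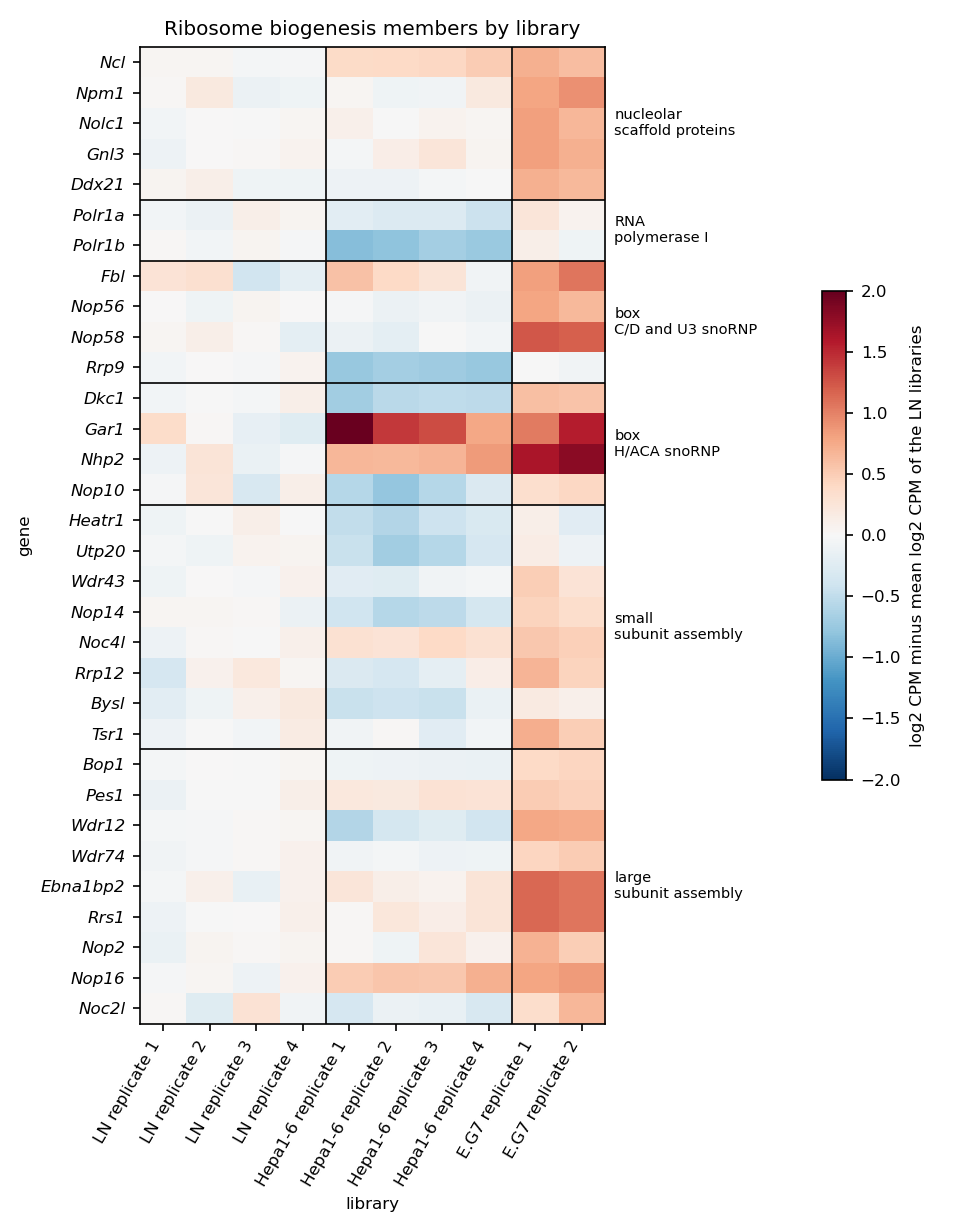
Heat map of the 32 ribosome biogenesis genes (rows, grouped by role) in the 10 libraries (columns). Colour gives log2 CPM minus the mean log2 CPM of the 4 LN libraries, red above and blue below. In the 2 E.G7 columns 26 genes are called higher than LN, while the 4 Hepa1-6 columns hold 7 higher and 10 lower.

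Nucleolar scaffold proteins organise the nucleolus and its early particles. In E.G7 all 5 of these genes rose (median 0.75), and in Hepa1-6 1 of 5 rose and 0 fell (median 0.05). The exception in Hepa1-6 was Ncl (nucleolin, an RNA-binding protein of ribosomal RNA transcription and processing; chr1:86344719-86359400, minus strand). Ncl stood at 497, 496, 472 and 474 CPM in LN, 634, 641, 648 and 687 in Hepa1-6, and 789 and 741 in E.G7. The 3 groups did not overlap. It rose by 0.43 in Hepa1-6 (SE 0.0437, adjusted p = 2.88e-07) and 0.66 in E.G7 (SE 0.0522, adjusted p = 2.29e-08), and Hepa1-6 was below E.G7 (-0.23, SE 0.0528, adjusted p = 0.00193).

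Npm1 (nucleophosmin, a chaperone of nucleolar particles) ranged from 423 to 525 CPM across LN libraries and from 434 to 530 across Hepa1-6 libraries, while the E.G7 libraries had 794 and 866. LN and Hepa1-6 covered almost the same range (log2 fold change 0.02, SE 0.0751, adjusted p = 0.829), and E.G7 was above both (0.84 against LN, adjusted p = 1.26e-06). Reads that Npm1 may share with processed copies of it were not examined. Nolc1, Gnl3 and Ddx21 (a scaffold of snoRNPs, a nucleolar GTPase and an RNA helicase) had the same calls as Npm1, with values of 0.68 to 0.76 in E.G7 against LN and -0.06 to 0.10 in Hepa1-6 against LN.

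RNA polymerase I makes the ribosomal RNA precursor, and its 2 largest subunits followed another pattern. Polr1b (chr2:129100995-129126594, plus strand) stood at 70.3, 66.7, 72.3 and 68.1 CPM in LN, 38.6, 39.9, 43.4 and 41.5 in Hepa1-6, and 75.6 and 65.0 in E.G7. Hepa1-6 was wholly below both other groups, which overlapped. Polr1b fell 1.70-fold in Hepa1-6 against LN (log2 fold change -0.76, SE 0.0685, adjusted p = 6.38e-08), the largest decrease of the 32 genes, and differed by 0.02 in E.G7 (SE 0.0823, adjusted p = 0.870). Polr1a fell in Hepa1-6 as well (-0.30, adjusted p = 0.00164; -0.11 and 0.181 with pan T cell scaling) and was not called in E.G7 (0.16, adjusted p = 0.128).

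Box C/D snoRNPs guide the methylation of ribosomal RNA and the U3 particle takes part in its first cuts. Nop58, a core box C/D protein (chr1:59684971-59719044, plus strand), stood at 113, 119, 112 and 95.8 CPM in LN, 101, 95.2, 109 and 105 in Hepa1-6, and 259 and 252 in E.G7. LN and Hepa1-6 overlapped and E.G7 was more than 100 CPM above either. Nop58 rose 2.32-fold in E.G7 (log2 fold change 1.22, SE 0.0784, adjusted p = 1.98e-09), was not called in Hepa1-6 against LN (-0.10, adjusted p = 0.201), and was 2.49-fold lower in Hepa1-6 than in E.G7 (-1.31, SE 0.0784, adjusted p = 1.46e-09). That was the widest gap between the tumours among the 32 genes. Its partners Nop56 (0.72) and Fbl (0.92, the methyltransferase fibrillarin) rose in E.G7 too and were not called in Hepa1-6. Rrp9, a U3-specific protein (chr9:106475963-106485424, plus strand), took another course than Nop58. It stood at 68.6, 72.1, 70.0 and 75.3 CPM in LN, 42.4, 44.6, 43.8 and 42.2 in Hepa1-6, and 71.3 and 68.1 in E.G7, so that Hepa1-6 alone stood apart. It fell 1.65-fold in Hepa1-6 (-0.73, SE 0.0598, adjusted p = 2.26e-08) and differed by -0.04 in E.G7 (adjusted p = 0.681; 0.22 and 0.0140 with pan T cell scaling).

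Box H/ACA snoRNPs convert uridine in ribosomal RNA to pseudouridine, and the same 4 core proteins are also part of telomerase. Their genes split in Hepa1-6, where 2 rose and 2 fell, and all 4 rose in E.G7. Nhp2 (chr11:51619735-51623714, plus strand) stood at 44.8, 57.9, 44.1 and 47.7 CPM in LN, 76.7, 75.5, 77.2 and 87.4 in Hepa1-6, and 149 and 169 in E.G7. The groups did not overlap, and Nhp2 had the largest rise of the 32 genes in E.G7, 3.27-fold (log2 fold change 1.71, SE 0.0998, adjusted p = 6.03e-10). It rose 1.63-fold in Hepa1-6 (0.70, SE 0.0861, adjusted p = 2.44e-06) and was lower there than in E.G7 (-1.01, adjusted p = 5.32e-07).

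Gar1 (chr3:129824912-129831396, minus strand) stood at 8.38, 6.59, 5.82 and 5.52 CPM in LN, 25.6, 17.3, 16.1 and 11.1 in Hepa1-6, and 13.3 and 19.3 in E.G7. It had the lowest counts of the 32 genes and a wide spread in both tumours, which overlapped each other but not LN. It rose 2.66-fold in Hepa1-6 (log2 fold change 1.41, SE 0.232, adjusted p = 0.000107) and 2.48-fold in E.G7 (1.31, SE 0.271, adjusted p = 0.000908). The tumours differed by 0.10 (SE 0.271, adjusted p = 0.787).

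Dkc1, the pseudouridine synthase dyskerin (chrX:75095854-75109777, plus strand), went in opposite directions in the 2 tumours. It stood at 120, 125, 122 and 136 CPM in LN, 77.4, 86.5, 88.7 and 87.3 in Hepa1-6, and 191 and 187 in E.G7, without overlap. It fell 1.48-fold in Hepa1-6 (log2 fold change -0.56, SE 0.0592, adjusted p = 4.12e-07) and rose in E.G7 (0.59, SE 0.0702, adjusted p = 2.72e-06), a gap of -1.15 between the tumours (SE 0.0697, adjusted p = 1.76e-09). Nop10 (chr2:112261926-112263269, plus strand), the smallest of the 4 proteins, moved likewise with more spread. It stood at 67.3, 80.9, 54.8 and 74.2 CPM in LN, 46.4, 39.9, 46.4 and 56.1 in Hepa1-6, and 86.3 and 91.2 in E.G7, and LN overlapped Hepa1-6. It fell in Hepa1-6 (-0.55, SE 0.117, adjusted p = 0.000797). Its rise in E.G7 (0.36, SE 0.139, adjusted p = 0.0398) was lost without any of 5 single libraries, LN replicates 1 and 3, Hepa1-6 replicate 3 and each of the E.G7 replicates, with adjusted p between 0.0511 and 0.190.

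Of the 8 small subunit assembly genes, 1 rose and 4 fell in Hepa1-6 (median -0.27), 5 rose in E.G7 (median 0.39), and all 8 were lower in Hepa1-6 than in E.G7 (median -0.53). Heatr1 and Utp20 encode large proteins of the earliest small subunit particle. Heatr1 (chr13:12395027-12440289, plus strand) stood at 99.6, 105, 115 and 105 CPM in LN, 75.2, 70.7, 79.3 and 85.7 in Hepa1-6, and 115 and 90.5 in E.G7. Hepa1-6 was below both other groups, and the E.G7 libraries lay on either side of all LN libraries. It fell in Hepa1-6 against LN (log2 fold change -0.45, SE 0.0805, adjusted p = 0.000134) and was -0.04 in E.G7 (adjusted p = 0.723). Its lower level in Hepa1-6 than in E.G7 (-0.40, adjusted p = 0.00274) was lost without E.G7 replicate 1 (adjusted p = 0.123).

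Utp20 (chr10:88746607-88826804, minus strand) stood at 46.7, 45.4, 50.6 and 49.7 CPM in LN, 35.2, 29.6, 32.5 and 38.2 in Hepa1-6, and 53.1 and 44.7 in E.G7. It fell in Hepa1-6 (log2 fold change -0.51, SE 0.0888, adjusted p = 0.00011), was 0.02 in E.G7 (SE 0.107, adjusted p = 0.874), and was lower in Hepa1-6 than in E.G7 (-0.53, SE 0.106, adjusted p = 0.000668). Noc4l (chr5:110648418-110653417, minus strand), a partner of Nop14, was the 1 gene of these 8 to rise in Hepa1-6. It stood at 84.2, 92.2, 90.0 and 97.0 CPM in LN, 112, 110, 120 and 112 in Hepa1-6, and 132 and 127 in E.G7. Its rises were 0.32 in Hepa1-6 (SE 0.0576, adjusted p = 0.000149) and 0.51 in E.G7 (SE 0.0690, adjusted p = 9.9e-06). Nop14 itself fell in Hepa1-6 (-0.46) and rose in E.G7 (0.39). Wdr43, Rrp12 and Tsr1 were called in E.G7 (0.39 to 0.61) and not in Hepa1-6 against LN, while Bysl was called in Hepa1-6 (-0.36, adjusted p = 0.00311; 0.110 with pan T cell scaling) and not in E.G7 (0.13).

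All 9 large subunit assembly genes rose in E.G7 (median 0.60) and all 9 were lower in Hepa1-6 than in E.G7 (median -0.53). In Hepa1-6 against LN 3 rose and 1 fell (median 0.07). Bop1, Pes1 and Wdr12 encode the 3 proteins of the PeBoW complex, which is needed to mature the large subunit. Their genes took 3 different courses in Hepa1-6 against LN: Pes1 rose (0.24, adjusted p = 0.00187; 0.058 and 0.399 with upper-quartile scaling), Bop1 was not called (-0.11, adjusted p = 0.0627) and Wdr12 fell. Wdr12 (chr1:60069785-60098645, minus strand) stood at 38.6, 39.3, 40.3 and 41.0 CPM in LN, 26.6, 31.1, 33.6 and 30.4 in Hepa1-6, and 67.8 and 66.5 in E.G7, without overlap. It fell 1.31-fold in Hepa1-6 (log2 fold change -0.39, SE 0.0774, adjusted p = 0.000365), rose 1.69-fold in E.G7 (0.76, SE 0.0906, adjusted p = 2.82e-06), and was 2.21-fold lower in Hepa1-6 than in E.G7 (-1.14, adjusted p = 4.17e-08).

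Rrs1, which brings the 5S ribonucleoprotein into the large subunit precursor (chr1:9545408-9547455, plus strand), stood at 36.1, 38.2, 38.7 and 41.3 CPM in LN, 39.1, 45.3, 42.3 and 46.0 in Hepa1-6, and 85.7 and 80.6 in E.G7. LN and Hepa1-6 overlapped, and E.G7 was above every other library. Rrs1 rose 2.16-fold in E.G7 (log2 fold change 1.11, SE 0.0857, adjusted p = 1.72e-08), and its value in Hepa1-6 against LN was 0.16 (SE 0.0733, adjusted p = 0.0600). Ebna1bp2 gave a similar rise in E.G7 (1.10), and its small rise in Hepa1-6 (0.17, adjusted p = 0.0375) was lost without LN replicate 1, LN replicate 3, Hepa1-6 replicate 1 or Hepa1-6 replicate 4 (adjusted p 0.0908 to 0.127). Nop16 (chr13:54584185-54590090, minus strand) was the large subunit gene with the largest rise in Hepa1-6. It stood at 38.6, 40.1, 36.7 and 41.6 CPM in LN, 55.8, 57.4, 57.0 and 64.3 in Hepa1-6, and 67.4 and 70.6 in E.G7. It rose by 0.58 in Hepa1-6 (SE 0.0696, adjusted p = 1.96e-06) and 0.81 in E.G7 (SE 0.0824, adjusted p = 4.09e-07). The remaining genes, Wdr74, Nop2 and Noc2l, rose in E.G7 by 0.46 to 0.60 and were not called in Hepa1-6 against LN.

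Across the 3 comparisons the 32 genes fell into 5 courses. The most common, with 15 genes that included Npm1, Nop58 and Rrs1, was no call in Hepa1-6 against LN, higher in E.G7 than in LN, and lower in Hepa1-6 than in E.G7. A further 6 genes (Ncl, Nhp2, Noc4l, Pes1, Ebna1bp2 and Nop16) rose in both tumours and more in E.G7. The third course held 6 genes that fell in Hepa1-6 with no call in E.G7 against LN: Polr1a, Polr1b, Rrp9, Heatr1, Utp20 and Bysl. Opposite changes were seen in 4 genes, Dkc1, Nop10, Nop14 and Wdr12, which fell in Hepa1-6 and rose in E.G7. Gar1 rose in both tumours with no call between them.

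**Figure D3:**
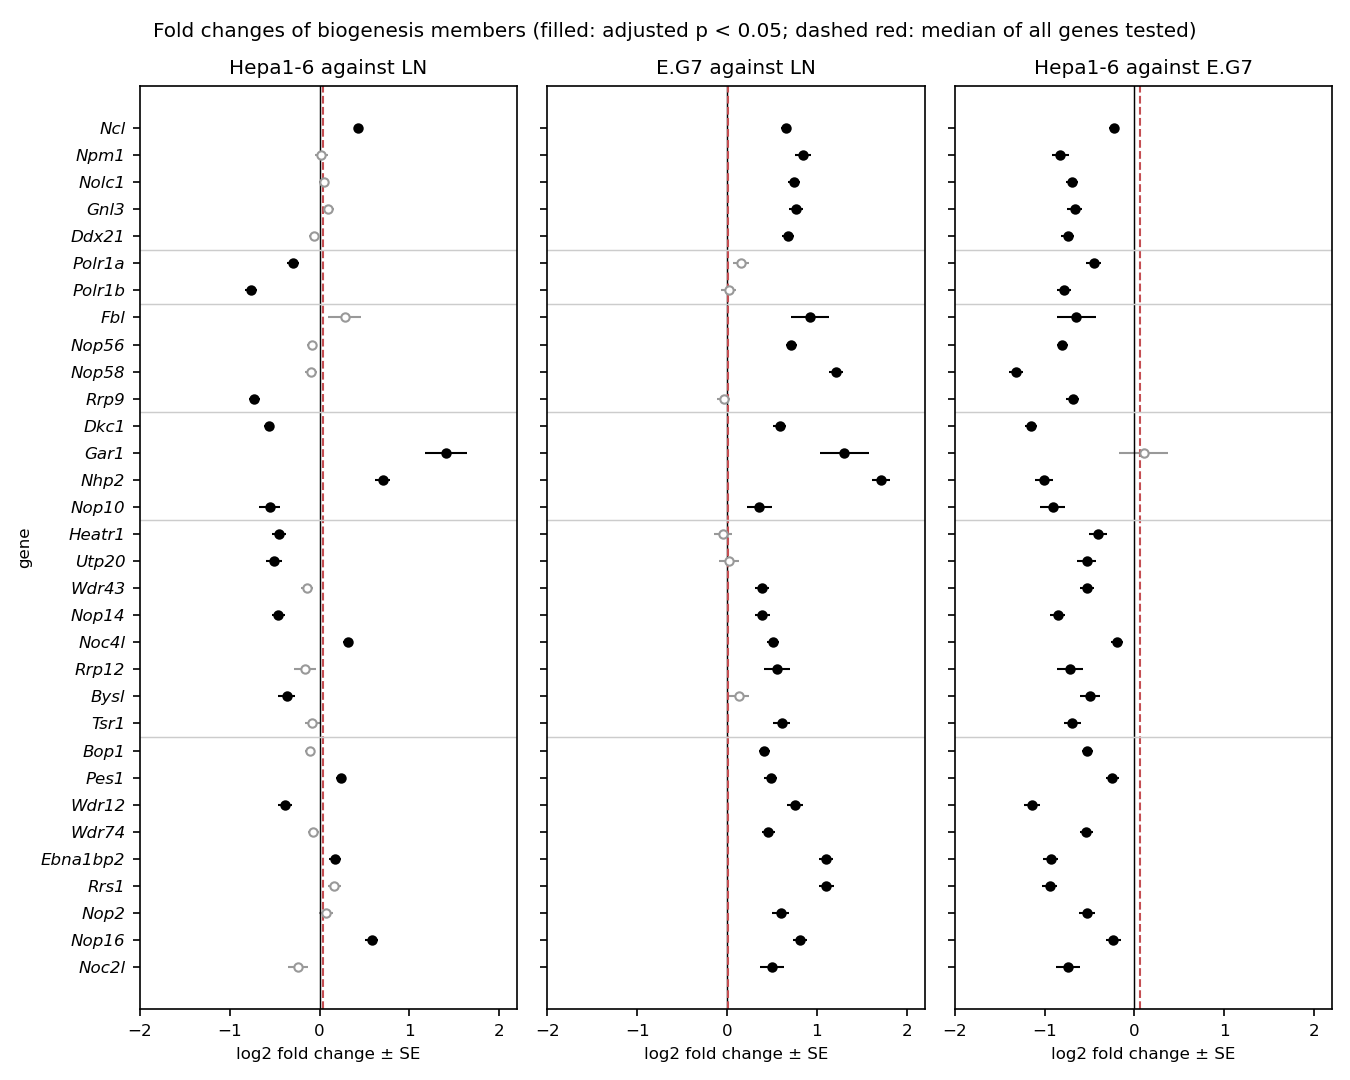
Log2 fold change (horizontal axes, bars ± SE) of each ribosome biogenesis gene in the 3 comparisons, from edgeR over all 10 libraries. Filled points are called (adjusted p under 0.05), open points are not, and the dashed red line is the median of all genes tested. In E.G7 against LN 26 points are called to the right of 0 and in Hepa1-6 against E.G7 31 are called to the left.

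Some of these calls rest on few libraries, since E.G7 had 2. Of the 29 members called higher in E.G7 against LN, 25 stayed called when any 1 of the 10 libraries was left out. The 4 that did not were Mycn, Nop10, Rrp12 (adjusted p = 0.0744 without E.G7 replicate 1) and Noc2l (0.123 without E.G7 replicate 2). Of the 33 members lower in Hepa1-6 than in E.G7, 27 stayed called in each of these fits. The other 6 were Mxd4, Heatr1, Fbl (0.0566 to 0.221 without any of Hepa1-6 replicates 2, 3 and 4 or either E.G7 replicate), Noc4l (0.0534 to 0.173 without any of Hepa1-6 replicates 1, 2 and 4 or either E.G7 replicate), Nop16 (0.0644 to 0.182 without any of Hepa1-6 replicates 1, 2 and 3 or either E.G7 replicate) and Pes1 (0.0652 without E.G7 replicate 1). With 1 library left out, all 13 members lower in Hepa1-6 than in LN stayed called, and so did 9 of the 10 higher, the exception being Ebna1bp2. Other scalings ended 4 more of these calls, those of Pes1 (upper-quartile) and of Polr1a, Max and Bysl (pan T cell).

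A second limit lies in the counting. Whether counting used strand is not stated in the sources used here, and the exons of 19 members overlap another annotated gene. For 8 of them (Gnl3, Nop56, Rrp9, Dkc1, Nhp2, Heatr1, Bysl and Bop1) the overlapping gene had at least 1000 counts in some library, so their levels are uncertain. Among the 24 biogenesis genes without such an overlap, 21 were higher in E.G7 than in LN and 0 lower, 6 were higher and 6 lower in Hepa1-6 than in LN, and 23 were lower in Hepa1-6 than in E.G7. The 24 still hold smaller overlaps. The overlapping gene reached 335 counts for Wdr12 (lowest own count 652), 232 for Noc2l (555) and 237 for Tsr1 (976).

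Other RNA polymerase I and subunit assembly genes were taken from lists that exclude the 38. The medians of these lists were above 0 in E.G7 against LN and below 0 in Hepa1-6 against LN. These medians and counts are from the reported scaling alone. Pan T cell scaling moved the median of all genes by 0.18 in Hepa1-6 against LN. The signs of the Hepa1-6 medians and the counts called may therefore depend on the scaling. Their counts are read here against the genes with a mean of at least 10 CPM, of which 35.4% were lower in Hepa1-6 than in LN, 41.1% higher in E.G7 than in LN, and 28.0% lower in Hepa1-6 than in E.G7. Among 13 other RNA polymerase I genes, 8 fell and 2 rose in Hepa1-6 (median -0.19), 6 rose and 3 fell in E.G7 (median 0.20), and 9 were lower in Hepa1-6 than in E.G7 (median -0.36). Polr1d, a subunit shared with RNA polymerase III, rose most in both tumours (0.74 and 1.09), and Taf1c, a subunit of the promoter selectivity factor, fell most in both, from 41.0 CPM in LN to 19.1 in Hepa1-6 (-1.10) and 20.5 in E.G7. Twistnb, another polymerase subunit, had the widest gap between the tumours (-0.69).

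Of 43 other small subunit assembly genes, 26 fell and 5 rose in Hepa1-6 (median -0.20), 19 rose and 2 fell in E.G7 (median 0.18), and 29 were lower in Hepa1-6 than in E.G7 with 0 higher (median -0.38). The share higher in E.G7 (44.2%) was near that background, while the shares lower in Hepa1-6 (60.5% against LN and 67.4% against E.G7) were above it. Pno1 rose most in both tumours (0.77 and 1.66), Aatf fell most in Hepa1-6 (-0.67), Rrp36 fell most in E.G7 (-0.65), and Mphosph10, a component of the U3 particle, was furthest below E.G7 in Hepa1-6 (-1.04).

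Of 48 other large subunit assembly genes, 17 fell and 9 rose in Hepa1-6 (median -0.08), 22 rose and 7 fell in E.G7 (median 0.19), and 27 were lower and 1 higher in Hepa1-6 than in E.G7 (median -0.35). The shares lower in Hepa1-6 than in LN (35.4%) and higher in E.G7 (45.8%) were near the background, and the share lower in Hepa1-6 than in E.G7 was 56.2%. Eif6, which keeps the large subunit from joining the small one too early, rose most in Hepa1-6 (0.73). Rpf2, the partner of Rrs1, rose most in E.G7 (1.35), was not called in Hepa1-6 against LN (-0.13, adjusted p = 0.214) and had the widest gap between the tumours (-1.48). Mdn1, a giant ATPase that strips factors from the large subunit precursor, fell most in both (-1.06 and -0.72). Spata5 was the 1 gene higher in Hepa1-6 than in E.G7 (0.32).

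A list of 32 MYC targets outside the nucleolus was, like the other lists, chosen with earlier results of these data known. Of the 32, 20 (62.5%) rose and 4 fell in Hepa1-6 against LN (median 0.41), and 29 rose and 2 fell in E.G7 (median 1.01). Of genes with a mean of at least 10 CPM, 41.6% were higher in Hepa1-6 than in LN. In Hepa1-6 against E.G7, 25 of the 32 were lower and 1 higher (median -0.73). Odc1, the first enzyme of polyamine synthesis, rose most in Hepa1-6, from 25.1 ± 2.45 CPM in LN to 91.1 ± 4.52 (SD, n = 4 each; log2 fold change 1.86), and stood at 232 ± 51.6 in E.G7 (SD, n = 2). Bcat1, an enzyme of branched-chain amino acid breakdown, rose most in E.G7, from 14.7 ± 3.36 CPM (SD, n = 4) to 146 ± 3.09 (SD, n = 2; log2 fold change 3.31), and was furthest below E.G7 in Hepa1-6 (-2.79). Tert, the catalytic subunit of telomerase, fell most in both tumours (-1.12 and -1.24), and Ccnd2, a D-type cyclin, was the 1 gene higher in Hepa1-6 than in E.G7 (0.14).

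All 22 genes of a cell cycle list rose in both tumours, with medians of 2.12 in Hepa1-6 and 2.97 in E.G7, and all 22 were lower in Hepa1-6 than in E.G7 (median -0.86). Their summed level was 563 to 613 CPM in LN, 1580 to 1651 in Hepa1-6 and 3154 to 3325 in E.G7. The cell cycle genes were thus raised in Hepa1-6 libraries in which the summed biogenesis level overlapped that of LN. The share of dividing cells, and the part of lymphoma cells or of other cells in these levels, was not tested. The share of counts from mitochondrial genes ranged from 1.67% to 2.07% over the LN libraries and from 1.26% to 1.48% over the Hepa1-6 libraries, the E.G7 libraries having 1.70% and 1.96%, and its part was not tested either.

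**Figure D4:**
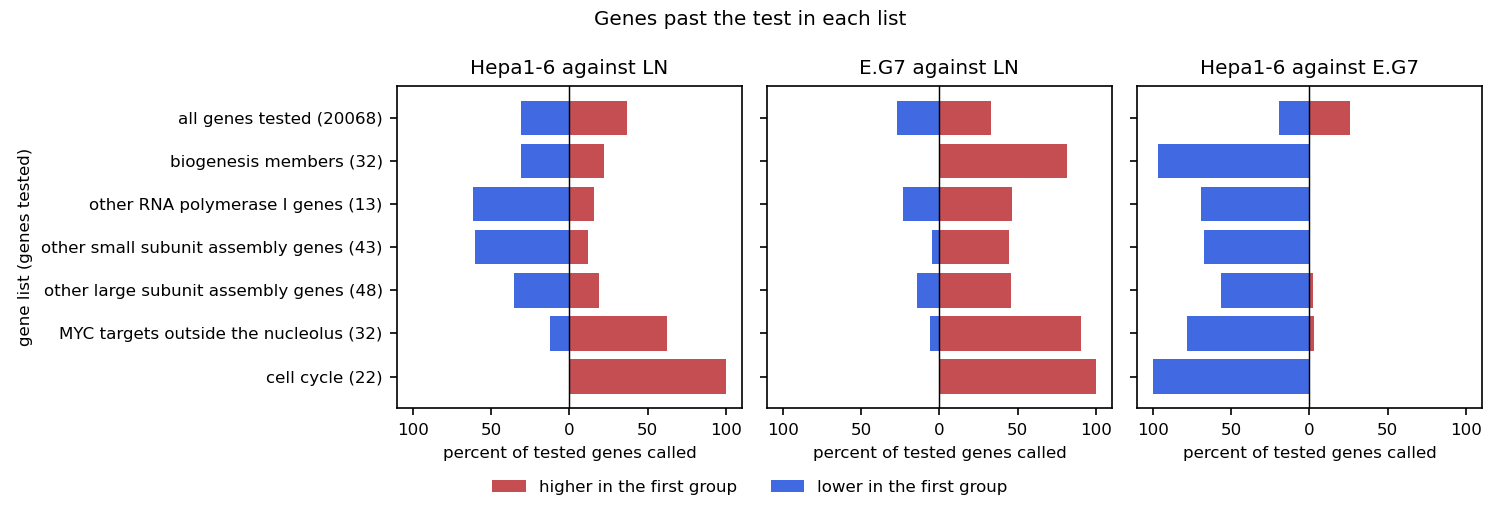
Percent of tested genes called higher (red, to the right) and lower (blue, to the left) in each comparison, for all 20068 genes tested, the 32 biogenesis genes and 5 further lists, with the number of genes in brackets. In Hepa1-6 against LN the cell cycle bar reaches 100% higher while the biogenesis bars are at 21.9% higher and 31.2% lower, against 37.0% and 31.1% of all genes.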

How the data were processed

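Treg cells were sorted from lymph nodes, Hepa1-6 tumours and E.G7 tumours, total RNA was extracted with TRIzol, and libraries were made and read on the BGISEQ-500 platform, per the labels. The deposited gene table holds raw counts for 10 libraries, and the authors also deposited FPKM values for 12930 genes. The submitters' processing notes name HISAT2, featureCounts, Subread, RSEM, DESeq2 and the mm10 build, with no versions or roles; annotation and strand setting are not given in the sources used here. The table's gene length column was used for levels per kb.

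Members and lists were chosen with earlier results of these data known. Counts were fitted with edgeR 4.0.16 (R 4.3.3), with filterByExpr (20068 of 55291 genes kept), TMM scaling, 1 fit over all 10 libraries, robust quasi-likelihood tests and Benjamini-Hochberg adjustment over all genes tested at 0.05; standard errors are the absolute log2 fold change over the root of F. The biological coefficient of variation was 13%. Named by rule were the 6 network genes, and in each comparison the 4 biogenesis genes with the most positive and the 4 with the most negative change, and the extremes of each pathway list; other genes were named after their values were seen. Libraries of 1 group differed by 7.41 to 18.9 times counting noise (chi-square per degree of freedom), so none is a repeat deposit. The floors given for Mycn cover counting error only.

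Alternatives were RLE, upper-quartile and pan T cell scaling (12 genes), no filter, a filter of 10 CPM in 2 libraries, DESeq2 1.42.0, limma 3.58.1 (voom, and log2 FPKM plus 1 or 0.1), a test against a 1.5-fold change, a fit on the compared groups alone, a replicate block, and leaving out each library.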

Additional observations from a re-analysis of the deposited data

Results flagged for a closer look

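Among 75 sets of 4 libraries checked, 3 held a library far from the others, where chance alone gives about 1 in 20. Nhp2 was at 87.4 CPM in Hepa1-6 replicate 4 and at 75.5 to 77.2 in the other Hepa1-6 libraries. Bysl was at 52.4 CPM in the same library and at 42.2 to 43.1 in the others. Nop14 was at 49.1 CPM in LN replicate 4 and at 54.4 to 54.8 in the other LN libraries.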

How the results depend on the processing

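Changes of sign are named here only for members called in the reported fit or the alternative. In Hepa1-6 against LN, upper-quartile scaling called 23 members lower (13 in the reported fit) and gave the biogenesis genes a median of -0.26. Among members called in either fit, it turned Ebna1bp2 (-0.011) and Nolc1 (-0.13) negative. Pan T cell scaling called 16 members higher (10 in the reported fit) and turned the median to 0.10. In E.G7 against LN the median was 0.59. It was 0.48 with upper-quartile scaling, 0.85 with pan T cell scaling, 0.50 with the 10 CPM filter and 0.54 to 0.69 with 1 library left out. Among members called in either fit, pan T cell scaling turned Rrp9 (0.22) and Myc (0.084) positive. Members lower in E.G7 numbered 1 in place of 2 with RLE, pan T cell scaling, no filter, DESeq2, the 1.5-fold test, the fit on the compared groups alone and the replicate block, and 1 to 2 with 1 library left out; in each the gene lost was Myc. The median of all genes moved by -0.18 (upper-quartile) and 0.18 (pan T cell) in Hepa1-6 against LN and by -0.12 and 0.25 in E.G7 against LN. The share of calls that were higher was 54.3% in Hepa1-6 against LN and 54.6% in E.G7 against LN, 64.6% and 68.0% with pan T cell scaling, and 45.0% and 48.3% with upper-quartile scaling.

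The 1.5-fold test left 4 members higher and 3 lower in Hepa1-6 against LN, 14 higher in E.G7 against LN (of 29) and 12 lower in Hepa1-6 against E.G7 (of 33). Over all genes it called 3095 lower in Hepa1-6 against LN, 4144 higher and 2876 lower in E.G7 against LN, and 2837 higher and 1369 lower in Hepa1-6 against E.G7, where the reported fits called 6237, 6554, 5459, 5228 and 3925. The 10 CPM filter, which tests fewer genes, called 4294 higher and 4129 lower in Hepa1-6 against LN and 4050 higher in E.G7 against LN. On log2 FPKM plus 1 and plus 0.1, which also test fewer genes, 3887 and 3864 were lower in Hepa1-6 against LN, and 3542 and 3523 in E.G7 against LN. Where no construction shows the cause, the cause was not tested. The FPKM tables and the 10 CPM filter gave no value for Mycn. Neither did the fits on the compared groups alone in the comparisons with LN.

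Replicate numbers did not pair the samples: same-numbered libraries had deviations correlated at -0.0490 to 0.0287 over 8 pairs, and 1 of 10 libraries was closest to its own number. With the replicate block, 11 members were higher and 13 lower in Hepa1-6 against LN, 30 higher and 1 lower in E.G7 against LN, and 1 higher and 32 lower in Hepa1-6 against E.G7. Apart from the 1.5-fold test, 25 of the 29 members higher in E.G7 than in LN and 27 of the 33 lower in Hepa1-6 than in E.G7 stayed called under every alternative run, as did 8 of the 10 higher and 10 of the 13 lower in Hepa1-6 than in LN (lost: Ebna1bp2, Pes1, Polr1a, Max and Bysl). With 2 E.G7 libraries and Mycn at 25 counts or fewer, small changes are not resolved.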
